A study of Mus musculus with 4 samples.

Results

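The nuclear factor I (NFI) genes *Nfia*, *Nfib*, *Nfic* and *Nfix* were examined in nuclei of mouse inguinal white adipose tissue (iWAT) profiled by snATAC-seq, which counts the open stretches of chromatin (peaks) in which a transposase cut the DNA of each nucleus. All peaks on the body of a gene and the 2000 bases upstream of it were taken as its peaks, which gave 233 of 189598 peaks on 4 of the 17173 protein-coding genes that carried a peak. The nuclei came from 21 wild-type C57BL/6 males aged 8 weeks, without a transgene, in 7 groups of 3 mice. The groups were kept at 22 °C without treatment (day0RT), at 6.5 °C for 1, 3 or 7 days (day1C, day3C, day7C), or treated at room temperature with 1 mg/kg CL-316,243 (CL), an agonist of the β3-adrenergic receptor, for 1, 3 or 7 days (day1CL, day3CL, day7CL). Of 32552 nuclei, 1111 to 2021 came from each mouse with 1340376 to 6916698 matrix entries, and the authors had assigned every nucleus to 1 of 12 clusters.

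NFI proteins bind DNA as dimers at a palindrome built on the letters TTGGC, and the members share a closely related DNA-binding domain. In the adipocyte lineage NFIA is known to occupy enhancers of brown fat genes together with PPARγ and C/EBP factors and to take part in the thermogenic program. NFIB and NFIX are best known for their roles in the development of brain, lung and muscle and in stem cells, whereas NFIC is known from tooth root development.

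*Nfia* (ENSMUSG00000028565, chr4:97772734-98118874, plus strand, GRCm38/mm10) carried 87 peaks and *Nfib* (ENSMUSG00000008575, chr4:82290173-82705750, minus strand) carried 86. *Nfix* (ENSMUSG00000001911, chr8:84699876-84800344, minus strand) carried 41 peaks, and the shorter *Nfic* (ENSMUSG00000055053, chr10:81396186-81455635, minus strand) carried 19. Most of the peaks were intronic, with 82 of 87 for *Nfia*, 81 of 86 for *Nfib*, 14 of 19 for *Nfic* and 35 of 41 for *Nfix*. The peak of each gene with the strongest difference between beige and white adipocytes is shown here. These 4 were picked by the values of the comparison described further on, in which 8 NFI peaks were called. The middle 240 bases of each peak are printed from the plus strand of GRCm38/mm10, at chr4:97820831-97821070 in *Nfia*, chr4:82387653-82387892 in *Nfib*, chr10:81435480-81435719 in *Nfic* and chr8:84760770-84761009 in *Nfix*. Capitals mark TTGGCA, a short NFI motif, or AGGTCA, a nuclear receptor motif.
Nfia: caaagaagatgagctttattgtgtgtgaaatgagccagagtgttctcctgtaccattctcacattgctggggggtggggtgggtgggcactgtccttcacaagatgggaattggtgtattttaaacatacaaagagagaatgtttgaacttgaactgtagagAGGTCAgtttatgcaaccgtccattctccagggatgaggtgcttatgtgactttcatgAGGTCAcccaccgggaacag
Nfib: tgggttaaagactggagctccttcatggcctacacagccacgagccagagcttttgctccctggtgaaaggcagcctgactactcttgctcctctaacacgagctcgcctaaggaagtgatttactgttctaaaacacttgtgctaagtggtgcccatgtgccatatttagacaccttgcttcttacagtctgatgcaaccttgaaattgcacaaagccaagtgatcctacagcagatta
Nfic: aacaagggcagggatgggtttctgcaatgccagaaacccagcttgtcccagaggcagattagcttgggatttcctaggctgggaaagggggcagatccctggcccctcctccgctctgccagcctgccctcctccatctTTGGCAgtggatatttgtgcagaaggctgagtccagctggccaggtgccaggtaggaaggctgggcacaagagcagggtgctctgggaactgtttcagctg
Nfix: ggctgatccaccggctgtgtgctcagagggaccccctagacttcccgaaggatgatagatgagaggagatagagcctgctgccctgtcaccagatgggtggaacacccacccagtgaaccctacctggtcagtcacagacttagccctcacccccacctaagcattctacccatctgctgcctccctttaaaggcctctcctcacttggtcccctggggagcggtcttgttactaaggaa

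The *Nfia* stretch held 2 copies of AGGTCA, which occurred on either strand in a window of this length in 17.5% of all peaks. The *Nfic* stretch held 1 copy of TTGGCA, found in 20.4% of all peaks at this length, and none of these letters stood in the *Nfib* and *Nfix* stretches. In the middle 500 bases, TTGGCA was present in 30.9% of the members' peaks (72 of 233) and in 32.2% of all peaks, and AGGTCA in 26.2% against 31.1%. The long NFI motif, TTGGC and GCCAA with any 5 bases between them, which is its own reverse complement, stood in 191 of 189598 peaks (0.101%) and in 0 of the 233.

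Accessibility of the NFI genes was high in adipocytes, progenitors and vessel or muscle nuclei and lower in blood cell nuclei, except that *Nfic* was spread over all of them. Levels are given as CPM, the matrix entries on a gene scaled to 1000000 entries on all genes, in each mouse and cluster with at least 10 nuclei. *Nfib* differed most, with a 34.4-fold range between the highest and the lowest cluster mean, against 7.72-fold for *Nfia*, 5.05-fold for *Nfix* and 2.74-fold for *Nfic*. The mean levels of *Nfib* ran from 572.8 to 914.5 CPM in the 6 clusters outside the blood lineages and from 26.6 to 114.5 CPM in the 6 blood cell clusters. For *Nfia* these ranges were 702.7 to 1160.7 and 150.4 to 283.4 CPM, and for *Nfix* 401.0 to 724.9 and 143.5 to 357.7 CPM, whereas for *Nfic* they overlapped (274.2 to 595.1 and 217.3 to 346.0 CPM). Since the authors derived the clusters from these very entries, a test between clusters is not independent of how they were formed.

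The labels of the clusters were checked with marker genes. *Pparg*, *Adipoq*, *Plin1* and *Cidec* were highest in the adipocyte clusters and *Ucp1* and *Cidea* in the beige cluster, while B cell and T cell markers were highest in their own clusters. The cluster annotated VSMC did not carry the smooth muscle pattern, since *Acta2*, *Myh11* and *Tagln* were all highest in APC2. Of 5 skeletal muscle markers 4 were highest there, among them *Ttn* at 491.4 CPM, *Mylk4* at 432.1 CPM and *Myod1* at 83.4 CPM, while *Myog* was highest in VEC (15.7 CPM), and the cluster is referred to here by the annotation alone. The progenitor markers *Pdgfra*, *Ebf2*, *Cd34* and *Ly6a* were highest in APC1. APC2, where *Pdgfrb* was highest, had nearly as much *Pdgfra* (75.8 against 84.8 CPM in APC1) but only 4.05 CPM of *Cd34* and 4.62 CPM of *Ly6a*. Its annotation as a progenitor thus rests on fewer of these markers. *Cdh5*, an endothelial marker, was highest in macrophages, whereas *Pecam1* and *Tie1* were highest in the endothelial cluster (VEC). The macrophage marker *Adgre1* was highest in dendritic cells and the dendritic marker *Cd209a* in macrophages, while *Csf1r*, *Mrc1*, *Flt3* and *Itgax* were highest in their own clusters. Between mice, 8739 nuclei carried a barcode string that also occurred in another mouse.

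Counted over the whole gene, *Nfia*, the member tied to the brown fat program, was highest in beige adipocytes at 1160.7 ± 104.7 CPM (SD, n = 19 mice), where the mice ran from 986.5 through a median of 1144.6 to 1376.1 CPM. White adipocytes followed at 1072.6 ± 96.1 CPM (n = 21), with 719.3, 1069.3 and 1202.7 CPM as lowest, median and highest mouse. The mice of the adipocyte clusters overlapped almost fully, and the difference within mice was not past the threshold (mean log2 difference 0.08, higher in beige in 14 of 19 mice, sign-flip permutation, adjusted p = 0.114). APC2, annotated as a progenitor cluster, had 936.2 ± 171.3 CPM and lay below white adipocytes in 16 of 19 mice (adjusted p = 0.0401, permutation). APC1 had 839.7 ± 179.9 CPM, the VSMC-annotated cluster 782.6 ± 353.3 CPM and VEC 702.7 ± 268.4 CPM. From APC2 to VEC no neighbours in this order differed beyond the spread. A gap followed between VEC and CD4 T cells (283.4 ± 48.4 CPM), with VEC higher in 13 of 14 mice (adjusted p = 0.00198, permutation). B cells (179.4 ± 24.2 CPM, n = 21) lay below CD8 T cells (262.5 ± 54.5 CPM) in 19 of 20 mice (adjusted p = 0.00114, permutation), and dendritic cells were lowest at 150.4 ± 74.0 CPM. On the promoter peaks alone this order was lost, with beige adipocytes at 160.1 ± 72.5 CPM and white at 167.6 ± 27.0 CPM, below B cells (185.3 ± 41.8 CPM) and CD4 T cells (235.9 ± 46.7 CPM), and no neighbours differed.

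*Nfib* was highest in the VSMC-annotated cluster at 914.5 ± 239.4 CPM (n = 10), with mice at 396.5, 988.1 and 1173.9 CPM as lowest, median and highest. Beige adipocytes had 814.8 ± 84.9 CPM, white adipocytes 758.8 ± 50.2 CPM, VEC 747.0 ± 219.5 CPM and APC2 736.6 ± 137.4 CPM, and no neighbours among these 5 differed. Beige adipocytes were above white adipocytes in 14 of 19 mice, short of the threshold (mean log2 difference 0.09, adjusted p = 0.0918, permutation). APC1 lay below APC2 at 572.8 ± 106.4 CPM, in 17 of 18 mice (adjusted p = 0.00114, permutation). The largest step of the order came next, from APC1 to macrophages at 114.5 ± 59.2 CPM, by a mean log2 difference of 2.42 in 20 of 20 mice (adjusted p = 0.00114, permutation). The lymphocyte clusters held 26.6 to 43.6 CPM, and the 21 mice of the B cell cluster ran from 7.72 to 48.4 CPM, so that entries on *Nfib* were scarce in these nuclei.

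*Nfix* was highest in the VSMC-annotated cluster (724.9 ± 100.5 CPM) and in APC1 (657.3 ± 131.6 CPM). APC1 was above white adipocytes (492.5 ± 50.8 CPM) in 17 of 20 mice (adjusted p = 0.00114, permutation). White adipocytes and beige adipocytes (456.7 ± 76.9 CPM) did not differ beyond the spread, with the white level higher in 13 of 19 mice (adjusted p = 0.156, permutation). Macrophages (357.7 ± 76.2 CPM) were above B cells (266.8 ± 26.7 CPM) in 17 of 21 mice (adjusted p = 0.00114, permutation), and the other T cells were above CD8 T cells in 16 of 20 mice (adjusted p = 0.00415). On peaks of no other gene these 2 T cell clusters did not differ beyond the spread (mean log2 difference 0.27, adjusted p = 0.257, permutation). *Nfic*, the most evenly accessible member, was highest in the VSMC-annotated cluster (595.1 ± 163.1 CPM) and VEC (529.7 ± 186.7 CPM). VEC was above APC2 (355.0 ± 66.1 CPM) in 11 of 13 mice (adjusted p = 0.00545, permutation), and the order from APC2 downward held no further step past the threshold, through white adipocytes at 309.7 ± 34.8 CPM and beige adipocytes at 274.2 ± 50.3 CPM to dendritic cells at 217.3 ± 68.6 CPM. Of the 44 pairs of neighbours in the orders of the 4 genes, 9 differed.

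**Figure D1:**
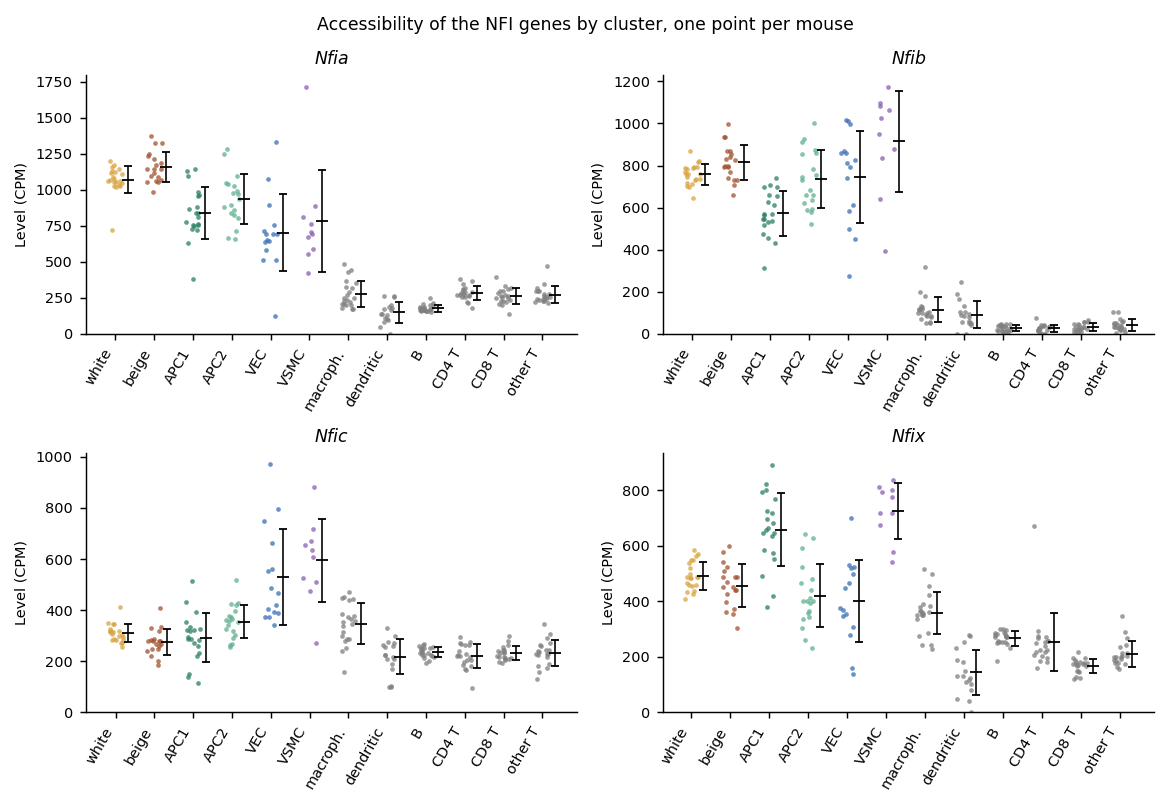
Level of each NFI gene (CPM, y axis) in the 12 clusters (x axis), with 1 point per mouse and the mean ± SD in black beside the points. *Nfib* drops from 572.8 CPM or more in the clusters outside the blood lineages to 114.5 CPM or less in the blood cell clusters, while the *Nfic* means of both kinds overlap.

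Expressed per kb of peak, which allows the genes to be set beside each other, *Nfia* led the members in no cluster. In white adipocytes *Nfic* held 31.4 CPM per kb of peak, *Nfia* 24.5, *Nfix* 21.6 and *Nfib* 20.5, a narrow range. In B cells the same levels per kb were 23.9 for *Nfic*, 11.7 for *Nfix*, 4.1 for *Nfia* and 0.732 for *Nfib*. The members thus differed from each other far more in B cells than in adipocytes.

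Part of what was left of *Nfia* and *Nfix* in blood cells lay on peaks that other genes share. In B cells, the 5 *Nfia* peaks shared with *E130114P18Rik* at the gene start held 69.7% of the *Nfia* entries (1673 of 2401), against 11.5% in white adipocytes (2359 of 20528). Counted on peaks of no other gene, *Nfia* had 61.3 ± 36.7 CPM in B cells and 943.6 CPM in white adipocytes. For *Nfix*, 7 peaks shared with neighbouring genes held 67.4% of the B cell entries (2553 of 3790) and 18.1% of those in white adipocytes. A peak at chr8:84701150-84701923, shared with a gene at the 3′ end of *Nfix*, was highest in B cells (67.4 CPM) among the 12 clusters. It lies within the GENCODE model of *Nfix* used here and outside the RefSeq model (chr8:84704712-84801238). Without the shared peaks *Nfix* had 86.4 ± 15.2 CPM in B cells, 399.9 CPM in white adipocytes and 550.8 CPM in APC1. Within the gene models used here, which gene the shared peaks belong to cannot be told apart by position, and none of the *Nfib* and *Nfic* peaks was shared.

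Peaks over the start of a coding transcript were read singly. The *Nfib* peak at chr4:82505638-82507212, in which 4 coding transcripts start, lies 199.3 kb inside the longest annotated gene model. It was the only *Nfib* peak over such a start, with 55.0 ± 6.54 CPM in white adipocytes, 54.4 ± 20.1 CPM in beige adipocytes, 73.1 CPM in APC2, 85.7 CPM in VEC and 0.613 CPM in B cells. For single peaks the CPM is scaled to the entries in all peaks. This peak alone held 14.0% of the *Nfib* entries of APC1 and 8.72% of those of white adipocytes. The *Nfia* start peak at chr4:97777608-97778091, where 5 coding transcripts start, had 22.4 ± 12.1 CPM in white adipocytes, 25.6 CPM in beige adipocytes and 4.71 CPM in B cells. The *Nfix* start peak at chr8:84800004-84800833 was highest in the VSMC-annotated cluster (23.5 CPM) and APC1 (23.3 CPM), with 12.5 CPM in white adipocytes and 4.31 CPM in B cells. The *Nfic* start peak at chr10:81407520-81407946 was highest in VEC at 30.5 CPM and had 4.62 CPM in white adipocytes. A second *Nfic* start peak at chr10:81426978-81427246 had 6.92 CPM in white adipocytes and 9.95 CPM in APC2.

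Peak by peak, 59 of the 233 NFI peaks (25.3%) were highest in the VSMC-annotated cluster, where 10.4% of all peaks in the series were highest. A further 44 (18.9%) were highest in beige adipocytes, against 11.9% of all peaks, and 36 (15.5%) in VEC, against 8.07%. B cells were the highest cluster for 6 of the 233 (2.58%), against 6.94% of all peaks, and dendritic cells for 2 (0.858%), against 8.53%. By gene, beige adipocytes were highest for 26 of the 87 *Nfia* peaks, and the VSMC-annotated cluster for 24 of the 86 *Nfib*, 15 of the 41 *Nfix* and 7 of the 19 *Nfic* peaks. The VSMC-annotated cluster and VEC were the smallest clusters, with 283 and 351 nuclei, and the part of cluster size in these counts was not tested.

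**Figure D2:**
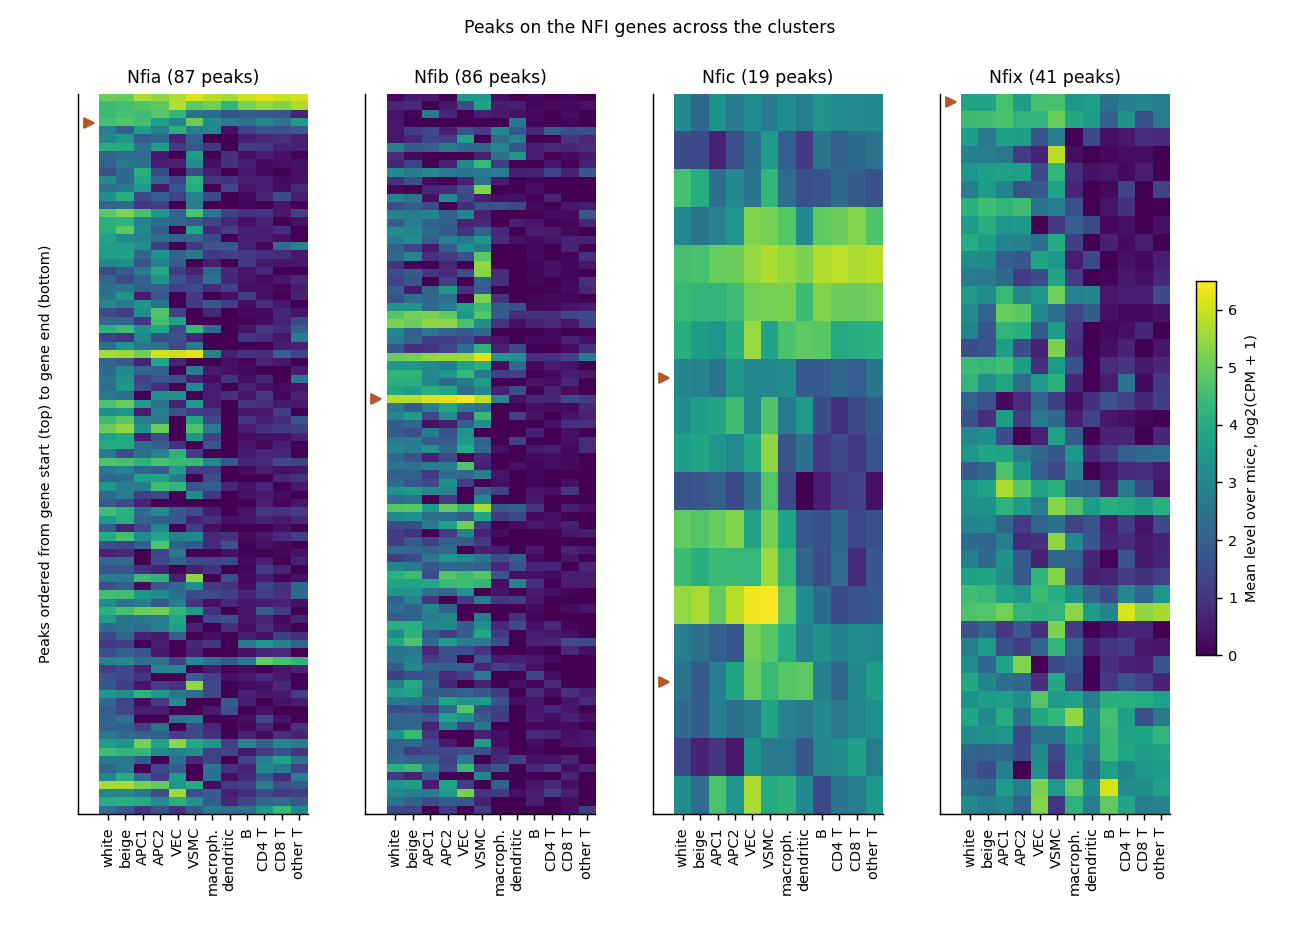
Mean level over mice of every peak on the 4 NFI genes, as log2(CPM + 1) in color, with peaks ordered from the gene start at the top to the gene end at the bottom and the 12 clusters along the x axis. Orange arrowheads mark peaks in which a coding transcript starts, and the dark blood cell columns of *Nfib* contrast with the peaks near the start of *Nfia* and the end of *Nfix* that are open in B and T cells.

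The genes whose cluster means followed those of the members most closely were compared by Pearson's r of log2(CPM + 1) over 12 cluster means and 12217 genes. These are descriptions, since the points share libraries and depth. *Nfia* was most like *Pdk4* (r = 0.973), a kinase that inhibits pyruvate dehydrogenase, *Mpdz* (0.972) and *Gpam* (0.97), an enzyme of triglyceride synthesis. *Nfib* was most like *Mustn1* (0.988), *Tmem184b* (0.987) and *Adamts9* (0.987). *Nfic* was most like *Ccny* (0.937), *Dpysl5* (0.929) and *Afap1l1* (0.928), and *Nfix* was most like *Zcchc24* (0.939), *Cntnap1* (0.933) and *Thra* (0.932), a thyroid hormone receptor. Among the members, *Nfia* and *Nfib* were nearest to each other (0.902) and *Nfia* and *Nfic* farthest apart (0.58).

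Beige and white adipocytes of the same mice were compared to ask whether the NFI genes opened with the beige state. Over whole genes they did not pass the test in either direction. Of 13438 genes tested 28.5% differed, and of the 4 members 0 did, by edgeR's quasi-likelihood test with the mouse as a block. The count at an unadjusted p under 0.05 was 2, and DESeq2 also called 0. The log2 fold change of beige over white was 0.04 ± 0.05 (SE) for *Nfia* (adjusted p = 0.539) and 0.05 ± 0.05 for *Nfib* (adjusted p = 0.465), each higher in 14 of 19 mice. For *Nfic* it was −0.15 ± 0.06 (adjusted p = 0.0736, higher in 4 of 19 mice) and for *Nfix* −0.12 ± 0.06 (adjusted p = 0.118, higher in 6 of 19). With each of the 19 mice left out in turn, the call changed for 1 mouse in each of the 2 lower members. *Nfic* passed without mouse 2 of day3CL (−0.18, adjusted p = 0.0264) and *Nfix* without mouse 2 of day7CL (−0.15, adjusted p = 0.0399). Without any other mouse neither passed, with adjusted p up to 0.213 for *Nfic* and 0.248 for *Nfix*.

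A list of 14 partner factors of the lineage (*Pparg*, *Rxra*, *Cebpa*, *Cebpb*, *Cebpd*, *Ebf1*, *Ebf2*, *Ebf3*, *Prdm16*, *Ppargc1a*, *Ppara*, *Zfp423*, *Tle3* and *Klf15*) was read in the same fit. Of these, 6 were higher and 6 lower in beige than in white adipocytes, where 28.5% of all genes differed, with a median log2 fold change of −0.014 beside −0.001 over all genes tested. *Ppara* (0.80, adjusted p = 1.12e-17), a regulator of fatty acid oxidation, *Prdm16* (0.58, adjusted p = 1.71e-18), a coregulator of brown fat fate, and *Ebf2* (0.46, adjusted p = 2.34e-12) were higher, and *Cebpd* was lower (−0.85, adjusted p = 4.68e-11). *Pparg* was at 0.01 (adjusted p = 0.96).

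Single peaks on the NFI genes did differ between the adipocyte states, and in both directions. Of 34063 peaks tested 27.3% differed, and 8 of the 79 NFI peaks that passed the filter on low counts did, or 10.1%, with 5 higher and 3 lower in beige. This count depended on the filter and the scaling. Without the filter 49 of the 233 were called (21%, with 46 lower), beside 21.1% of all 189541 peaks tested and a median log2 fold change of −0.479 over all of them. With scaling to library size alone 14 of the 79 were called, 12 of them higher in beige, and of all peaks called 66.7% were higher in place of 44.2%, a shift of the median over all peaks from −0.066 to 0.09. The rest of the 233 had too few entries to pass the filter, and a peak that passes such a filter through the cluster in which it is high is more likely to be called. By gene, 1 of 34 differed for *Nfia*, 5 of 21 for *Nfib*, 1 of 9 for *Nfic* and 1 of 15 for *Nfix*, and all 8 were intronic. None of the start peaks tested was among them, with log2 fold changes of −0.13 for *Nfib* (adjusted p = 0.375), −0.05 for *Nfia* (adjusted p = 0.884) and −0.19 for *Nfix* (adjusted p = 0.561).

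The strongest beige peak of *Nfib* was at chr4:82387567-82387979, 318.0 kb from the gene start and the source of the *Nfib* sequence above. Its level was 8.18 ± 3.59 CPM among white nuclei and 17.6 ± 7.72 CPM among beige nuclei. It was higher in beige in 16 of 19 mice, with a log2 fold change of 0.97 ± 0.22 (SE, adjusted p = 1.83e-04). A further 3 *Nfib* peaks toward the gene end were also higher in beige. At 336.7 kb (chr4:82368852-82369303) the log2 fold change was 0.87 ± 0.26 (adjusted p = 0.00574), with 14.9 ± 14.7 against 6.0 ± 4.22 CPM. At 370.1 kb (chr4:82335300-82335952) it was 0.64 ± 0.21 (adjusted p = 0.0118) and at 321.2 kb (chr4:82384061-82385094) 0.52 ± 0.18 (adjusted p = 0.0192), and this last pair of peaks was named after its values were seen. The 4 higher peaks lay between 318.0 and 370.1 kb, and the peaks among them that were not called were not counted. Of the 21 *Nfib* peaks tested, 4 were called higher and 1 lower, where 27.3% of all peaks tested differed. The lower peak at 194.0 kb (chr4:82511598-82511822), near the internal start and upstream of the RefSeq model, was lower in beige in 16 of 19 mice (−0.69 ± 0.28, adjusted p = 0.0447). It was not called with scaling to library size alone (−0.53, adjusted p = 0.154).

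In *Nfia*, the peak at chr4:97820513-97821389, 48.2 kb into the gene and with both copies of AGGTCA shown above, was higher in beige adipocytes. The mice had 0, 28.6 and 63.2 CPM in beige adipocytes and 0, 16.1 and 27.1 CPM in white adipocytes as lowest, median and highest, so that the groups overlapped. The log2 fold change was 0.66 ± 0.16 (SE, adjusted p = 3.51e-04), in the same direction in 16 of 19 mice. Without a filter on low counts this peak was not called (0.38, adjusted p = 0.117), nor were the *Nfib* peaks at 370.1 kb (0.43, adjusted p = 0.15) and 321.2 kb (0.28, adjusted p = 0.336).

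The largest change of an NFI peak between the adipocyte states was a lower one. The *Nfix* peak at chr8:84760357-84761424, 39.5 kb from the gene start, had 8.78, 17.7 and 35.0 CPM as lowest, median and highest mouse in white adipocytes and 0, 8.4 and 51.2 CPM in beige adipocytes. The medians differed clearly although single mice overlapped, and the log2 fold change was −1.43 ± 0.24 (SE, adjusted p = 9.13e-08), lower in beige in 17 of 19 mice. The *Nfic* peak at chr10:81435322-81435878, 20.0 kb from the gene start and with the TTGGCA copy shown above, was lower in beige in 15 of 19 mice (−0.65 ± 0.19, adjusted p = 0.00365), with 15.4 ± 11.3 against 22.7 ± 8.28 CPM.

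**Figure D3:**
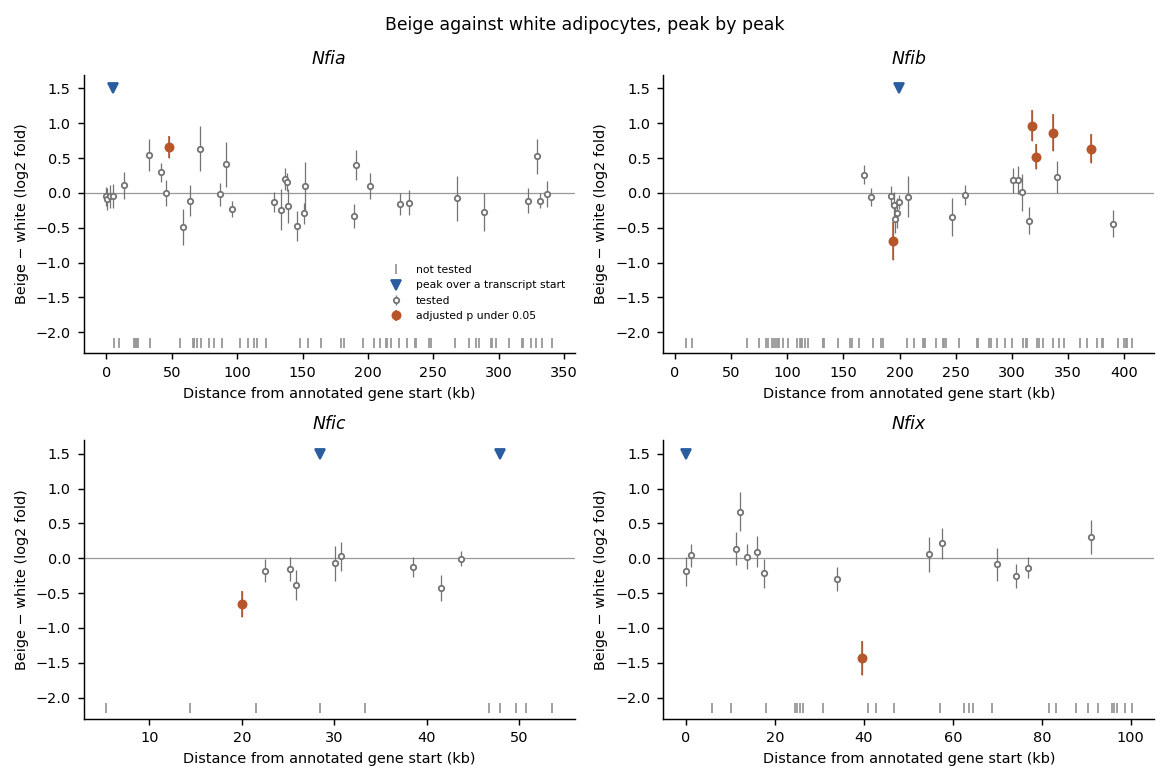
Log2 fold change of beige over white adipocytes (y axis, bars are SE) for each tested NFI peak against its distance from the annotated gene start in kb (x axis). Filled orange points have an adjusted p under 0.05, open points do not, ticks at the bottom are peaks with too few entries to pass the filter and triangles at the top mark peaks in which a coding transcript starts. The 4 *Nfib* peaks higher in beige stand between 318.0 and 370.1 kb, and the *Nfix* peak at 39.5 kb is the lowest point at −1.43.

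Peaks with the short NFI motif took a larger share of the entries in adipocytes than in lymphocytes. They held 33.0 ± 1.0% of the entries of beige adipocytes (n = 19), 32.4 ± 0.76% of those of white adipocytes (n = 21), 31.5% in APC2, 28.4% in APC1, 27.8% in the VSMC-annotated cluster, 25.6% in VEC, 22.7% in macrophages and 20.0 ± 0.38% in B cells (n = 21). Of all peaks 32.2% carried this motif, about the share of the entries in adipocytes. No motif other than those of NFI was counted in this way. The lowest beige mouse (31.0%) was above the highest B cell mouse (20.7%), whereas beige and white adipocytes overlapped. Of the 11816 peaks with this motif tested between beige and white adipocytes, 15.4% were higher and 15.6% lower in beige, against 12.1% and 15.2% of all peaks tested. A match of 6 letters is no evidence that an NFI protein was bound.

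The clusters annotated as progenitors were compared with adipocytes and with each other in the same way. In APC1 against white adipocytes 47.2% of 13353 genes differed, and 2 of the 4 members did, about the share of all genes. The folds of this comparison depended on the scaling. They are given after TMM, which put the median over all genes at −0.033, while scaling to library size alone, as in the CPM above, put it at 0.168 and turned the share of the called genes that were higher in APC1 from 41.9% to 59.2%. *Nfia* was lower in APC1, at 839.7 against 1072.6 CPM, by a log2 fold change of −0.61 ± 0.09 (SE, adjusted p = 2.59e-10), in 16 of 20 mice. *Nfib* was lower in all 20 mice, by −0.63 ± 0.10 (adjusted p = 6.18e-10). With scaling to library size alone these were smaller, −0.33 for *Nfia* (adjusted p = 1.46e-05) and −0.36 for *Nfib* (adjusted p = 1.5e-05). *Nfic* (−0.18, adjusted p = 0.166) and *Nfix* (0.19 ± 0.09, adjusted p = 0.0951, higher in APC1 in 17 of 20 mice) were not called. *Nfix* was called on peaks of no other gene (0.25, adjusted p = 0.0262), by DESeq2 (0.22, adjusted p = 0.00635) and with scaling to library size alone (0.44, adjusted p = 5.72e-08), the scaling under which it also passed the comparison of neighbours above, and *Nfic* then turned to 0.06 (adjusted p = 0.637). On promoter peaks alone, which are partly shared with another gene and leave out the *Nfia* start peak, *Nfia* was at −0.05 (adjusted p = 0.872).

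In this comparison 11 of the 14 partner factors were lower in APC1 and 2 higher, with a median of −0.646 beside −0.033 over all genes tested. The lower ones included *Prdm16* (−2.09, adjusted p = 1.59e-51) and *Pparg* (−1.67, adjusted p = 4.09e-44), the master regulator of adipocyte differentiation.

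In APC1 against APC2 52.1% of the 2426 genes tested differed, and 2 of the 4 members did, in opposite directions, which is about the share of all genes. *Nfix* was higher in APC1 by 0.61 ± 0.11 (SE, adjusted p = 5.98e-07) in 17 of 18 mice, and *Nfib* was lower by −0.39 ± 0.11 (adjusted p = 0.000852), with only 1 of 18 mice higher. *Nfia* (−0.19 ± 0.10, adjusted p = 0.078) and *Nfic* (−0.15 ± 0.14, adjusted p = 0.379) were not called, though *Nfia* passed on peaks of no other gene (−0.24, adjusted p = 0.0398). Of the partner factors 10 could be tested, and *Ebf2* (2.33, adjusted p = 1.43e-45), *Pparg* (0.70, adjusted p = 0.00033) and *Zfp423* (0.46, adjusted p = 0.00185) were higher in APC1.

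The effect of cold and CL on the NFI genes was tested in adipocytes, with white and beige nuclei summed per mouse and each treated group set against the same 3 day0RT mice. No NFI gene passed the test in any treated group. The share of the 14408 genes called was 0.34% at day1C, 1.63% at day3C, 5.04% at day7C, 2.6% at day1CL, 4.77% at day3CL and 7.76% at day7CL, and 2.33% and 6.41% for the means over the 3 days of cold and of CL. Of the 32 tests of the members 0 passed with edgeR, 5 had an unadjusted p under 0.05, and DESeq2 called 0. With shares of this size among all genes, 0 of 4 in a comparison does not set the members apart. The log2 fold changes ran from −0.25 (*Nfia* at day1CL, adjusted p = 0.179) to 0.25 (*Nfic* at day1C, adjusted p = 0.445), with SEs of 0.07 to 0.13.

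*Nfia* had 1111.7, 1118.2 and 1210.6 CPM in the adipocytes of the 3 day0RT mice, 1110.3, 1119.5 and 1156.7 CPM at day7C and 1079.2, 1088.1 and 1165.6 CPM at day7CL. The mice overlapped between these groups, and the mean log2 fold change over the days was −0.07 for cold (adjusted p = 0.695) and −0.14 for CL (adjusted p = 0.291). All mice of day1C (1065.3 to 1084.0 CPM), day1CL (748.3 to 1091.5 CPM) and day3CL (1029.5 to 1097.5 CPM) lay below all day0RT mice. Those of day3C overlapped with day0RT (1032.2 to 1122.8 CPM). How many of all genes stand apart from day0RT in this way was not counted. The lowest mouse of all, at 748.3 CPM, was in day1CL, where 2 of the 3 mice had only 29 and 68 adipocyte nuclei.

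*Nfib* came nearest to the threshold without passing it. The day0RT mice had 659.4, 717.7 and 740.7 CPM, the day7C mice 750.2, 796.7 and 863.3 CPM and the day7CL mice 800.7, 804.0 and 843.5 CPM. Both day 7 groups and day1C (754.9 to 778.5 CPM) lay above all day0RT mice, while day3C, day1CL and day3CL overlapped with them. How many of all genes are set apart in this way was not counted, so that the separation does not mark *Nfib* out. The log2 fold change at day7CL was 0.22 ± 0.09 (SE), with the smallest adjusted p of the 32 tests, 0.119. Averaged over the days it was 0.15 in cold (adjusted p = 0.356) and 0.13 in CL (adjusted p = 0.373).

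*Nfix* had 431.7, 482.0 and 518.1 CPM at day0RT, 512.3, 557.6 and 578.2 CPM at day3C and 442.4, 456.1 and 489.2 CPM at day7CL, with means over the days of 0.12 in cold (adjusted p = 0.559) and 0.00 in CL (adjusted p = 0.999). *Nfic* had 253.3, 270.8 and 323.6 CPM at day0RT, 267.8, 288.6 and 294.1 CPM at day7C and 268.5, 285.1 and 300.9 CPM at day7CL. Its means were 0.14 in cold (adjusted p = 0.524) and 0.06 in CL (adjusted p = 0.814), and its groups overlapped with day0RT at day 7.

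**Figure D4:**
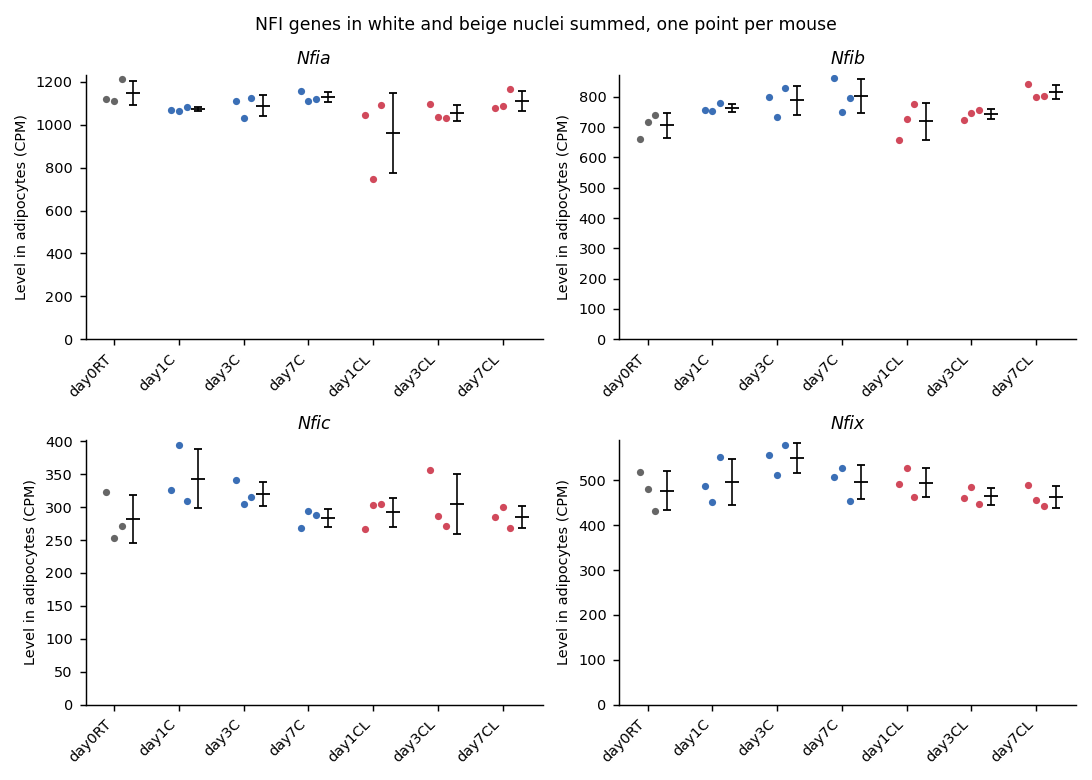
Level of each NFI gene in white and beige nuclei summed (CPM, y axis from 0) in the 7 groups (x axis), with 1 point per mouse and the mean ± SD in black. Gray points are day0RT, blue points cold and red points CL, and no group of any gene passes the test against day0RT.

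CL and cold were also compared on the same day. The share of genes called was 0.923% at day 1, 1.46% at day 3, 0.111% at day 7 and 2.76% for the mean of the days, and of the 16 tests of the members 0 passed with edgeR, 2 had an unadjusted p under 0.05 and DESeq2 called 0. The smallest adjusted p was 0.249, for *Nfix* at day 3 (−0.22). Among the 14 partner factors, *Zfp423* was the gene called in the mean of the days (0.21, adjusted p = 0.0233). Against day0RT, *Pparg* was higher and *Tle3*, a corepressor that opposes thermogenic genes, lower in the mean of cold (0.34 and −0.40, adjusted p = 0.0169 and 0.0116) and in the mean of CL (0.32 and −0.39, adjusted p = 0.0172 and 0.00889). *Zfp423* was also lower in the mean of cold (−0.31, adjusted p = 0.0167) and *Cebpa* in the mean of CL (−0.46, adjusted p = 0.0126), which made 1 higher and 2 lower of 14 in each.

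Peak by peak in the same adipocytes, 2 of 115 NFI peaks tested passed in any comparison with day0RT. The share of the 47835 peaks called was 0.211% at day1C, 1.25% at day3C, 3.1% at day7C, 2.02% at day1CL, 3.41% at day3CL, 4.13% at day7CL, 1.4% for the mean of cold and 3.86% for the mean of CL. The *Nfib* peak at chr4:82604498-82605305, 100.8 kb from the gene start and upstream of the RefSeq model, had 1.66, 2.79 and 3.65 CPM in the day0RT mice and 8.88, 9.47 and 11.6 CPM in the day7CL mice. The day0RT levels rested on 1, 1 and 4 entries and those of day7CL on 11, 8 and 45. All day7CL mice lay above all day0RT mice, though how many of all peaks stand apart in this way was not counted. In mouse 2 of day0RT 3 entries make 8.37 CPM, beside 8.88 CPM in the lowest day7CL mouse. The log2 fold change was 1.87 ± 0.58 (SE, adjusted p = 0.0398). Without any of the 3 day0RT mice the call was lost (1.64, 1.85 and 2.35, with adjusted p = 0.151, 0.083 and 0.137), and without mouse 1 of day7CL the peak no longer passed the filter on low counts.

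The *Nfix* peak at chr8:84712307-84712880, 87.8 kb from the gene start and intronic, had 4.99, 13.7 and 16.7 CPM at day0RT and 3.48, 3.95 and 5.22 CPM at day3CL, on 3, 15 and 6 entries and on 13, 9 and 3. The lowest day0RT mouse lay within the range of day3CL, and the log2 fold change of −1.55 ± 0.45 (SE, adjusted p = 0.0279) was not called without mouse 2 of day0RT (−1.42, adjusted p = 0.106), mouse 3 of day0RT (−1.23, adjusted p = 0.363) or mouse 2 of day3CL (−1.42, adjusted p = 0.174). The same peak was lower in CL than in cold over the mean of the days (−0.98 ± 0.25, adjusted p = 0.0138). The cold mice had 6.0, 11.9 and 24.3 CPM at day1C, 7.48, 9.63 and 12.2 CPM at day3C and 5.05, 5.89 and 8.11 CPM at day7C, against 0, 4.42 and 5.64 CPM at day1CL and 2.37, 6.46 and 6.47 CPM at day7CL. The groups were thus apart at day 3 and overlapped at day 7. At day 1 the day1CL mouse at 0 had 29 adipocyte nuclei, and its 0 allows up to 48.1 CPM. The day1CL mouse at 4.42 CPM had 68, where 3 entries make 13.3 CPM, so that neither can be set apart from day1C. This call was lost without mouse 1 of day1C (−0.72, adjusted p = 0.273), mouse 3 of day1CL (−1.26, adjusted p = 0.228) or mouse 3 of day7C (−0.89, adjusted p = 0.0877).

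Between CL and cold, the share of peaks called was 0.456% at day 1, 1.74% at day 3, 0.023% at day 7 and 1.75% for the mean. The calls on NFI peaks numbered 3, and the other 2 of them were of 1 *Nfia* peak at chr4:97905859-97906145, 133.3 kb from the gene start, which was named after its values were seen. It had 8.91, 11.7 and 18.0 CPM in the day1C mice and 0, 0 and 2.26 CPM in the day1CL mice. The mice at 0 are the shallow ones with 29 and 68 adipocyte nuclei, where a count of 0 allows up to 48.1 and 13.3 CPM, so that their levels cannot be set apart from those of day1C. The log2 fold change was −1.24 over the mean of the days (adjusted p = 0.00255) and −2.62 at day 1 (adjusted p = 0.0246). Without mouse 3 of day1CL, which holds 654 adipocyte nuclei, these became −2.73 (adjusted p = 0.184) and −7.08 (adjusted p = 0.498), and the day 1 call was also lost without mouse 1 of day1C (−2.69, adjusted p = 0.139), mouse 2 of day1C (−2.45, adjusted p = 0.0862) or mouse 2 of day1CL (−2.47, adjusted p = 0.0524).

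In B cells, the largest cluster with 11967 nuclei, *Nfib* was the only member called by edgeR, and DESeq2 called it in none of the comparisons with day0RT. The share of the 11485 genes called was 0.575% at day1C, 0% at day3C, 0.0174% at day7C, 2.7% at day1CL, 0% at day3CL, 1.36% at day7CL, 0.113% for the mean of cold and 1.31% for the mean of CL. Of the 32 tests of the members against the same day0RT mice 4 passed, all of *Nfib*. Its level was 14.5, 14.1 and 10.9 CPM in the day0RT mice and 46.6, 43.7 and 45.4 CPM in the day1C mice, resting on 14, 6 and 10 entries and on 15, 19 and 30 entries. The groups did not overlap, though how many of all genes stand apart in this way was not counted. The log2 fold change was 1.79 ± 0.34 (SE, adjusted p = 0.000535). With each mouse left out in turn the adjusted p of this comparison stayed between 0.000276 and 0.0368.

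Under CL the difference from day0RT was less even. The day1CL mice had 34.6, 37.2 and 22.9 CPM on 16, 20 and 1 entries (1.42 ± 0.39, adjusted p = 0.0244), and the day7CL mice had 42.7, 48.4 and 8.63 CPM on 46, 24 and 3 entries (1.53 ± 0.33, adjusted p = 0.00317). Mouse 3 of day7CL thus lay below all day0RT mice. The day7CL call was lost without mouse 1 of that group (1.29, adjusted p = 0.282), and the day1CL call without mouse 1 of day0RT (1.53, adjusted p = 0.0576), mouse 3 of day0RT (1.28, adjusted p = 0.097), mouse 1 of day1CL (1.44, adjusted p = 0.156) or mouse 2 of day1CL (1.32, adjusted p = 0.202). The mean over the days of CL (1.09 ± 0.31, adjusted p = 0.0406) was lost when any of 9 mice was left out, with adjusted p up to 0.223. At day3C, day7C and day3CL the log2 fold changes were 0.75, 0.44 and 0.32 and were not called. DESeq2 called none of the 4, with adjusted p = 0.0876 at day1C, 0.271 at day1CL, 0.322 at day7CL and 0.604 for the mean.

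Between CL and cold on the same day, 0.0609% of genes were called at day 1, 0% at day 3, 0.218% at day 7 and 0.0174% for the mean, and edgeR called 0 of the 16 tests of the members in B cells, with 1 at an unadjusted p under 0.05.

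At day1C the adipocyte markers were also higher in these nuclei, whereas at day1CL and day7CL they overlapped with day0RT. The summed level of the 4 adipocyte markers in B cell nuclei was 39.2 to 65.5 CPM at day0RT, 75.9 to 96.3 CPM at day1C, 55.8 to 68.7 CPM at day1CL and 52.0 to 56.5 CPM at day7CL. Most of this sum was *Adipoq*, with a B cell mean of 46.0 CPM, against 8.64 for *Pparg*, 4.18 for *Plin1* and 3.41 for *Cidec*. *Adipoq* was higher still in CD4 T cells (89.9 CPM) and CD8 T cells (71.6 CPM), so that the sum is not particular to adipocytes. In adipocytes the *Nfib* level was 758.8 CPM for white nuclei, against 27.2 CPM in B cells. Entries on genes per B cell nucleus were 1424.4, 920.4 and 1433.5 in the day0RT mice and 773.7, 728.5 and 922.3 in the day1C mice. The part of the adipocyte markers and of the depth in the *Nfib* result was not tested. The *Nfib* start peak held 10 entries in the B cells of 6 of the 21 mice.

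**Figure D5:**
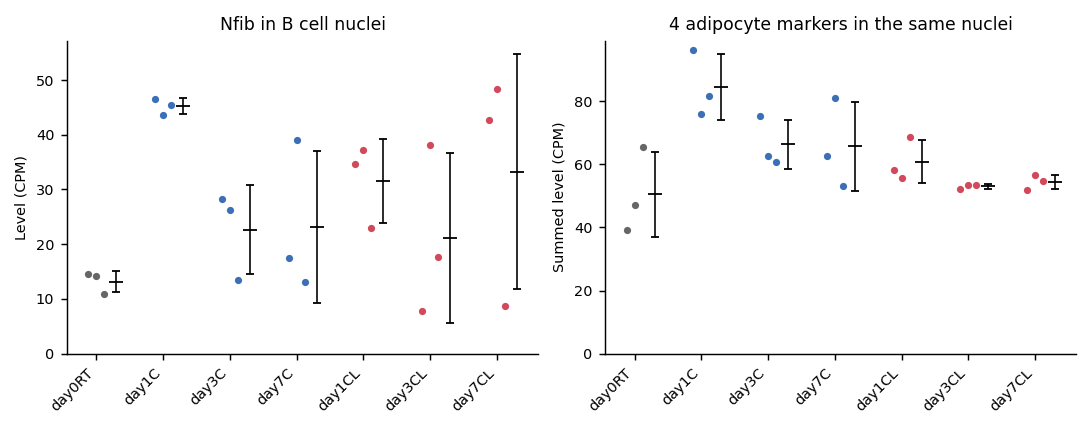
Left, level of *Nfib* in B cell nuclei (CPM, y axis) in the 7 groups (x axis), with 1 point per mouse and the mean ± SD in black. Right, the summed level of 4 adipocyte marker genes in the same nuclei, of which *Adipoq* had the highest mean in B cells. The day1C mice are the highest group in both panels as a mean, at 43.7 to 46.6 CPM for *Nfib* and 75.9 to 96.3 CPM for the markers.

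In macrophages and in the clusters annotated as progenitors, APC1 and APC2 summed, the treated groups gave no call for the NFI genes. In macrophages 0.0835% of 3594 genes were called at day1CL and 0% in the other comparisons with day0RT. Of the 32 tests of the members 0 passed with edgeR, 1 had an unadjusted p under 0.05 and DESeq2 called 0, with log2 fold changes from −0.69 to 0.71. In APC1 and APC2 summed, 0% of 4257 genes were called in each comparison, and of the members' 32 tests 0 passed with edgeR, 0 had an unadjusted p under 0.05 and DESeq2 called 0, with log2 fold changes from −0.39 to 0.30. CL against cold gave 0.0278% of genes in macrophages at day 1 and 0% otherwise. Of the members' tests edgeR called 0 of 16 in macrophages and 0 of 16 in APC1 and APC2 summed, with 0 at an unadjusted p under 0.05 in either. The SEs of the members reached 0.489 in macrophages and 0.244 in APC1 and APC2 summed. Log2 changes as small as those in adipocytes could thus not be detected there.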

How the data were processed

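Nuclei of whole frozen iWAT were profiled by single-nucleus ATAC-seq with combinatorial indexing. The authors aligned the reads to mm10 with Bowtie2, used SAMtools, called peaks with MACS2, clustered the nuclei with Signac, and deposited a matrix of counts, binary in that each entry is 1 for a peak open in a nucleus, with the mouse, group and cluster of each nucleus. The 4 GEO samples are pooled sequencing lanes, so mice and groups were taken from the deposited nucleus table. Stored zeros (145, beside 65588856 entries of 1) had no effect on sums.

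Entries were summed per mouse and cluster, and per gene over peaks on the gene body and 2000 bases upstream (GENCODE vM21, 21924 protein-coding genes, 3.38% of peaks on 2 or more genes). Libraries of at least 10 nuclei were tested with edgeR 4.0.16 (R 4.3.3) by its quasi-likelihood test, with its filter on low counts, TMM scaling and Benjamini-Hochberg adjustment over all features, at a threshold of 0.05. Clusters were compared with the mouse as a block, and treated groups in a fit of all 7 groups. Neighbours in a gene's order of clusters were compared within mice by sign-flip permutation of log2(CPM + 1), two-sided, exact where possible and otherwise with 100000 draws, adjusted over 44 pairs. Binary entries saturate, so that a peak open on both alleles counts once. DESeq2 1.42.0, thinning of each nucleus to 1000 entries and other settings were alternatives. Motifs and sequences were read from GRCm38 with Python 3.11.15. The tests were checked on simulated counts. Chosen to be named were all 4 members, peaks over a coding transcript start, the 3 peaks per gene with the largest change past the threshold between beige and white, and the 2 per gene with the smallest p under treatment. Of these last, only the peaks past the threshold are described under treatment. Members and lists were chosen with earlier results of these data known.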

Additional observations from a re-analysis of the deposited data

Results flagged for a closer look

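*Nfia* in the VSMC-annotated cluster had 1 mouse far above the others. Mouse 3 of day1CL had 1715.7 CPM among 10 mice, resting on 19 entries from 14 nuclei, and the gap to the next mouse was 0.643 of the whole range (Dixon's critical value 0.466). Chance gives about 1 such mouse in 20 groups, and 4 groups were tested.

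By a test of the difference between CL and cold itself, 2 NFI peaks were called in adipocytes, of 115 tested, beside 1.75% of all peaks for the mean of the days. The *Nfia* peak 133.3 kb from the gene start was lower in CL than in cold by a log2 fold change of −1.241 over the mean of the days and of −2.619 at day 1, where mice 1 and 2 of day1CL had no entry on it at a depth that allows up to 48.1 and 13.3 CPM, so that their levels cannot be set apart from those of day1C. The *Nfix* peak 87.8 kb from the gene start was lower in CL by −0.982 over the mean of the days. The calls on both peaks were lost without single mice, mouse 3 of day1CL among them.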

How the results depend on the processing

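Of 300 values recomputed under an alternative other than leaving out a mouse, 246 were taken as unchanged, among them 165 of 187 values of the NFI genes. A fold change was unchanged if it kept its direction and its side of the threshold, or had no adjusted p. A count of calls was unchanged if it stayed within a set factor of the main count. Direction turned in small changes that were not called. Thinning turned *Nfia* (−0.020) and *Nfib* (−0.131) in beige against white, *Nfia* (0.103) in APC1 against APC2, *Nfix* in the mean of cold (−0.076) and *Nfic* in the mean of CL (−0.015). Promoter peaks alone turned *Nfix* in beige against white (0.023) and in the mean of CL (0.213), and gave no value for *Nfib* and *Nfic*. Nuclei with at least 2000 entries turned *Nfic* in the mean of CL (−0.008), and libraries of at least 30 nuclei turned *Nfix* there (0.001). Scaling to library size alone turned *Nfic* in APC1 against white (0.057), where the median over all genes moved from −0.033 to 0.168. The cause of these turns was not tested.

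Counts of genes called moved most. Thinning gave 808 genes for beige against white, in place of 3824, 1554 for APC1 against white, in place of 6305, and 79 for APC1 against APC2, in place of 1264, while promoter peaks alone gave 1179 and 2727 for the first 2. For the mean of cold, 336 genes became 91 with DESeq2, 169 with white nuclei only, 45 with promoter peaks, 221 with deep nuclei and 26 after thinning. For the mean of CL, 924 became 262 with DESeq2, 139 with promoter peaks, 606 with deep nuclei and 55 after thinning, and CL against cold fell from 398 to 27 with DESeq2. The NFI peaks called between beige and white went from 8 to 5 at an adjusted p under 0.01, to 49 without a filter and to 14 with scaling to library size alone. The steps past the threshold in the cluster orders numbered 9 over whole genes, 0 with promoter peaks and 1 after thinning, which was *Nfib* in white adipocytes over APC1 and not among the 9. The 4 calls of *Nfib* in B cells became 0 with DESeq2 and 0 after thinning, which gave no value for *Nfib*; these B cell alternatives, thinning and DESeq2 for APC1 against APC2, DESeq2 for APC1 against white, scaling to library size alone, the gene models of RefSeq, peaks on no other gene and leaving out mice for single peaks were chosen after seeing the data.

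With each mouse left out, the genes called ran from 3172 to 3811 in beige against white, 104 to 364 for the mean of cold, 404 to 1036 for the mean of CL and 7 to 468 for CL against cold, with the lowest of these last 3 without mouse 3 of day0RT, mouse 3 of day0RT and mouse 3 of day1CL. NFI peaks called against day0RT ran from 0 (without mouse 2 or mouse 3 of day0RT) to 5 (without mouse 1 of day0RT or mouse 3 of day7CL), and were 1 without mouse 2 of day3CL or mouse 1 of day7CL. They ran from 0 (without mouse 3 of day1CL) to 3 in CL against cold, with 1 without mouse 1 of day1C. *Nfib* calls in B cells ran from 2 to 4, with 2 without mouse 1 or 3 of day0RT, mouse 1 or 2 of day1CL or mouse 1 of day7CL. The mean of CL ran from −0.095 to 0.058 for *Nfix* and from −0.003 to 0.142 for *Nfic*.

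Replicate numbers showed no pairing of the mice in the gene sums of adipocytes, the only ones checked. There, deviations of mice with the same number had a mean correlation of −0.002 (−0.123 to 0.116), beside 0.002 for different numbers. Of 21 mice, 9 correlated best with their own number. The authors report independent batches of the experiment, and no label ties these to the replicate numbers. With the replicate number as a block, NFI peaks called against day0RT went from 2 to 1, *Nfib* calls in B cells from 4 to 2, and *Nfix* in the mean of CL to 0.003.

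Depth limits single peaks: 79 of 233 could be tested between the adipocyte states, and libraries such as those of day1CL with 29 and 68 adipocyte nuclei resolve no peak of low level. Each entry is open or not, so that the number of cuts within a peak is not seen.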
